A study of Mus musculus with 5 samples.

Results

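The nuclear-encoded subunits of the respiratory chain and of ATP synthase were examined in RNA from brown adipose tissue (BAT) of cold-exposed mice that lacked, or kept, the transcription factor ATF4 in thermogenic fat cells. Members were the protein-coding genes whose symbols name a subunit of complexes I to V (Nduf, Sdh, Uqcr, Cyc1, Cox4i to Cox8 and Atp5 genes), with the Ndufaf assembly factors left out. This gave 86 gene entries of the 52022 genes with transcripts in the deposited files: 37 for complex I, 4 for complex II, 9 for complex III, 18 for complex IV and 18 for complex V. Of these, 83 had enough counts to be tested. Cox8c and Cox7b2 had no counts in any library, and a second entry named Atp5o had between 0 and 8.

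Protein complexes in the inner mitochondrial membrane carry out respiration. Complexes I and II pass electrons from NADH and succinate to ubiquinone, complex III passes them to cytochrome c, and complex IV, cytochrome c oxidase, passes them to oxygen. Complexes I, III and IV pump protons, and complex V, ATP synthase, makes ATP from the gradient. Most subunits are encoded in the nucleus and the rest on the mitochondrial chromosome, so each complex apart from complex II is built from both. In BAT the chain is very abundant, because uncoupling protein UCP1 lets the gradient run down as heat.

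ATF4 BKO mice carried floxed Atf4 alleles (ATF4 fl/fl) and Cre recombinase driven by the Ucp1 promoter (the Tg(Ucp1-cre)1Evdr transgene). WT mice carried the same floxed alleles without Cre, so no group had unmodified Atf4. The background was C57Bl/6J, the sex given is male, the age was 10 to 12 weeks, and every mouse had spent 3 days at 4 °C. Per the study's methods, mice were kept at thermoneutral temperature before the cold and were fed ad libitum. There was no group without cold exposure, so only the genotype could be compared. There were 3 ATF4 BKO and 2 WT libraries, 1 per mouse. Cells of the tissue that do not express Ucp1 keep Atf4, and a tissue extract cannot tell fewer cells of a type from less RNA per cell.

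Libraries held between 24698337 and 32452751 estimated counts. The targeted gene, Atf4, had 739, 1478 and 697 counts in ATF4 BKO 1, 2 and 3, and 9028 and 7674 counts in WT 1 and 2, which fits the labels. Xist, an RNA of female cells, had 4598 counts in ATF4 BKO 1 and no more than 7 elsewhere, against the label of that library. Skeletal muscle markers were highest in WT 2, as given below beside Cox6a2. All 9 brown adipocyte markers were detected in every library, with Ucp1 highest, between 9754 and 13065 CPM (counts scaled for library size). Zic1 was lowest, between 9.28 and 13.5 CPM. Adrb3 differed between the WT mice, at 46.4 CPM in WT 1 and 206 CPM in WT 2. Names of the deposited tables carry 1 of a pair of prefixes of unstated meaning, the first on ATF4 BKO 1, ATF4 BKO 2 and WT 1, the second on ATF4 BKO 3 and WT 2.

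The control regions of these genes are known for sites of a few transcription factors, NRF1, GABPA, YY1 and the ERR family, that bind many mitochondrial genes. RefSeq promoter sequence (GRCm38.p6, from 250 bases before to 50 bases after the start) was at hand for 68 of the 85 member symbols. Cox6a2, the muscle form treated below, was not among them, so the counts of motifs do not cover it. Letters of the NRF1 motif (GCATGCGC, either strand) occurred in 10 of them, or 14.7%, against 2.80% of all 27025 promoters. Those of GABPA (CCGGAAG) occurred in 22.1% against 9.12%, those of YY1 (AAGATGGC) in 13.2% against 2.88%, and those of ERR (AAGGTCA) in 11.8% against 4.66%. At least 1 of the first 3 motifs was present in 29 member promoters, or 42.6%, against 13.8% of all. The GC box GGGCGG was found in 41.2% of member promoters against 35.9% of all, and the E-box CAGCTG was found in 8.82% against 16.1%. The letters TGATGNAA, part of the element bound by ATF4, were found in 0 of the 68 member promoters and in 4.06% of all promoters, and the muscle motif CTAAAAATA of MEF2 in 0 and in 0.503%. These are matches of letters in a short window and say nothing about binding there.

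3 promoters are shown, all on the minus strand. The window of the ubiquitous subunit Cox6a1 holds overlapping NRF1 matches on both strands and a GABPA match. Ndufb8 has a YY1 match just after the start. Cox8b, the heart and muscle form that is also abundant in BAT, has none of the NRF1, GABPA, YY1 and ERR motifs but holds the E-box. The windows lie at chr5:115348909-115349208, chr19:44555393-44555692 and chr7:140900397-140900696 in GRCm38.p6. Capitals mark the NRF1, GABPA and YY1 matches, and matches of the GC box (in Cox6a1 and Ndufb8) and the E-box are not marked.
Cox6a1: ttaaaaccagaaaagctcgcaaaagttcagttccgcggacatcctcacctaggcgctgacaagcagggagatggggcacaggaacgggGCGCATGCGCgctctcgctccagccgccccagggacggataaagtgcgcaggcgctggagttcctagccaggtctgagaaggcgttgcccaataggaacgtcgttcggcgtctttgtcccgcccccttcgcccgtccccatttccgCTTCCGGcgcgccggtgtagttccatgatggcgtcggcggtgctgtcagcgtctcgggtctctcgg
Ndufb8: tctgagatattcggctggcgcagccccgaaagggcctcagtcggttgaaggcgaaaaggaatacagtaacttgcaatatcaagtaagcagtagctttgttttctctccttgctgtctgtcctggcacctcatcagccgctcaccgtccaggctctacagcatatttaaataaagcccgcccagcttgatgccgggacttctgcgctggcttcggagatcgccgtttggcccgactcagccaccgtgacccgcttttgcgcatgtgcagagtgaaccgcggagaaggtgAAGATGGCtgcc
Cox8b: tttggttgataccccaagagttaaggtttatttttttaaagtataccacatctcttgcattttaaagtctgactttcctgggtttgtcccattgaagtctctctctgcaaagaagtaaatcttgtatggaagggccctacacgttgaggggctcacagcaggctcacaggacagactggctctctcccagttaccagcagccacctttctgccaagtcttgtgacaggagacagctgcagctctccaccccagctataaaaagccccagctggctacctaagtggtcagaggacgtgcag

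Within a library, transcript levels were compared as TPM, which scales each library to the same total and takes transcript length into account. Subunits of complex IV were the most abundant, with a median over genes of 1625 TPM (each gene averaged over the 5 libraries), followed by complex III with 1371, complex V with 1106, complex II with 953 and complex I with 611 TPM. The highest gene of all was Atp5b, the catalytic beta subunit of ATP synthase, with 6083, 6995 and 8139 TPM in the ATF4 BKO libraries and 6862 and 6801 TPM in the WT libraries. Its partner in the catalytic hexamer, Atp5a1 for the alpha subunit, had 1017, 1016 and 1178 TPM against 1163 and 1154 TPM. In TPM summed over the transcripts of a gene, Atp5b thus stood between 5.90 and 6.91 times above Atp5a1 in every library. The gap was smaller in CPM, which takes no account of transcript length. Atp5b had 5913, 5751 and 7171 CPM in ATF4 BKO and 6078 and 5489 CPM in WT. Atp5a1 had 1911, 1625 and 2085 CPM against 1835 and 1749 CPM. The size of the gap thus depends on the measure, and it says nothing about the proteins, which are present in equal number.

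After Atp5b came Cox8b (mean 3455 TPM), Cox6b1 (3260), Cox4i1 (3041), Cox7a1 (2850), Cox5b (2505) and Cox6a1 (2362), all of complex IV. The ranges of neighbours in this order overlapped between libraries. Within a library each exceeded the next in 5 of 5 libraries, except for Cox8b over Cox6b1, in 3 of 5. The 4 subunits of succinate dehydrogenase, complex II, lay close together, from 746 TPM for the membrane anchor Sdhd to 1084 TPM for the iron-sulfur subunit Sdhb. Complex I spread more widely, from 1920 TPM for Ndufa4, a small subunit also assigned to cytochrome c oxidase, to 235 TPM for Ndufa13 and 22.7 TPM for Ndufa4l2. Only 6 tested members had a mean below 100 TPM: Atp5g1 (37.2), Ndufa4l2 (22.7), Cox6b2 (15.4), Atp5s (10.9), Cox6a2 (10.03) and Cox4i2 (8.03).

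**Figure D1:**
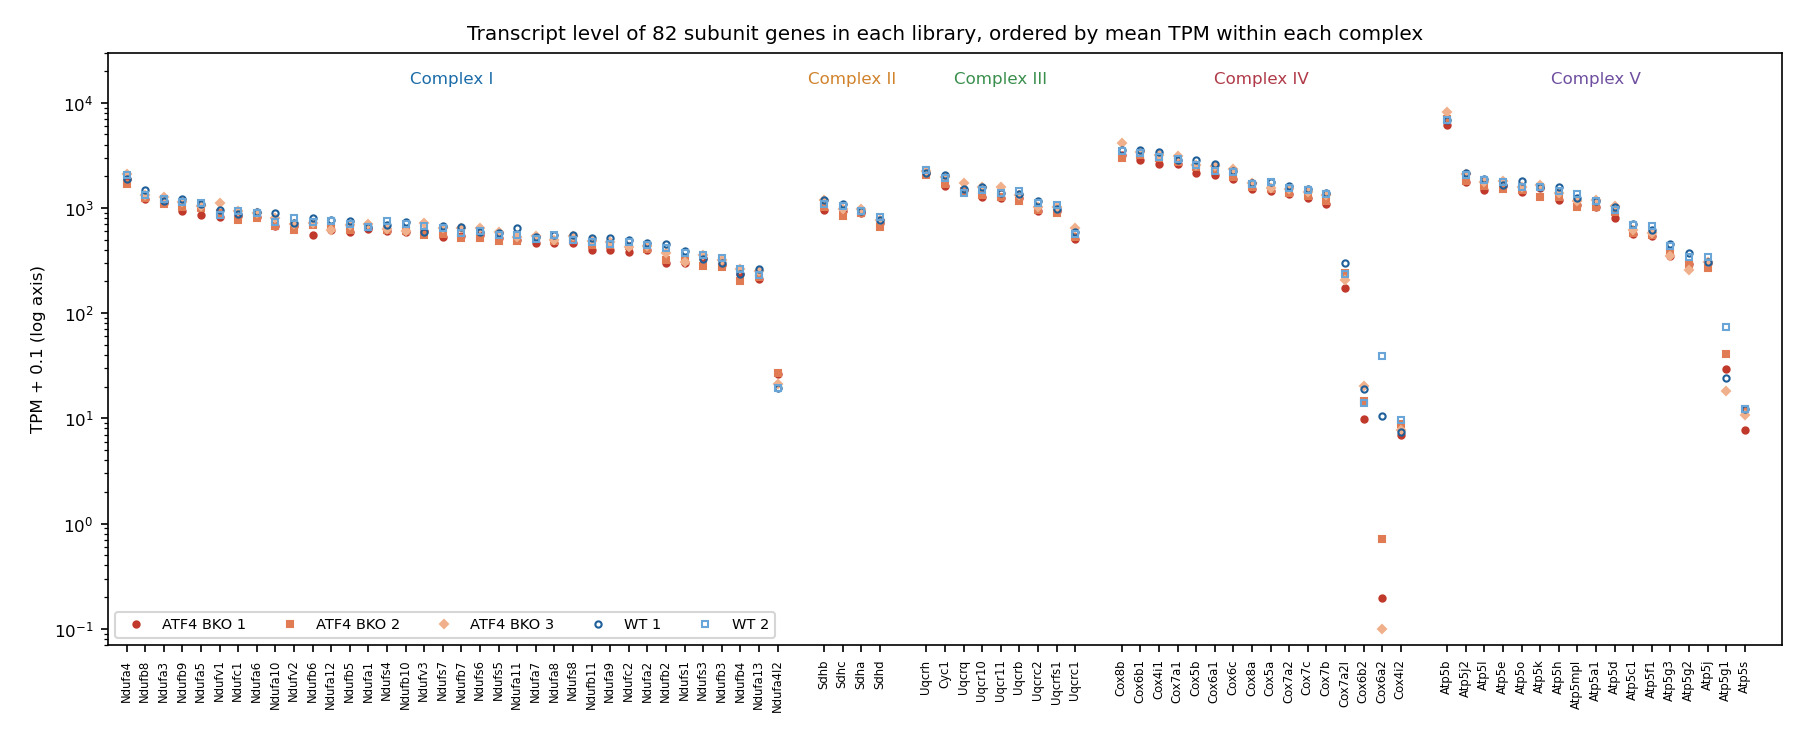
TPM plus 0.1 on a log axis (y) for 82 tested subunit genes (x), grouped by complex and ordered by mean; filled marks are the 3 ATF4 BKO and open marks the 2 WT libraries. The marks of most genes lie on top of each other high on the axis, and those of Cox6a2 run from 0 TPM in ATF4 BKO 3 to 39.1 TPM in WT 2.

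The test between genotypes was edgeR's quasi-likelihood test over all 16450 genes with enough counts, with a threshold of 0.05 on the Benjamini-Hochberg adjusted p. Log2 fold changes are ATF4 BKO minus WT. No subunit passed this test, and 1 of all genes tested did (0.00608%). DESeq2 called 1 subunit, Cox6a2, and 121 genes in all (0.736%). At an unadjusted p under 0.05 there was again 1 subunit, Cox6a2, beside 860 genes in all (5.23%). The deleted gene, Atf4, also missed edgeR's threshold, at a log2 fold change of −2.82 (SE 0.34). Its adjusted p was 0.671 by edgeR and 9.7e-12 by DESeq2. Missing edgeR's threshold therefore does not show that a gene was unchanged. With 3 and 2 mice, an exact permutation test of a single gene cannot go below 0.1 one-sided.

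The log2 fold changes of the subunits lay close to 0. The log2 fold change was smaller than 0.5 in either direction for 81 of 83 (97.6%, against 82.6% of all genes tested) and smaller than 0.25 for 78 of 83 (94.0%, against 59.8%). The 95% interval stayed within 1 log2 unit on each side for 81 subunits (97.6%, against 59.4%) and within 0.5 for 52 (62.7%, against 20.1%). For these 52, a change larger than 0.5 in either direction lies outside the interval of the fit. The highly expressed subunits are also measured more tightly, with a median standard error (SE) of 0.161 against 0.246 over all genes, and the part of depth in these shares was not tested.

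Of the 83 subunits, 56 had a log2 fold change above 0 and 27 below. The median was 0.051 for complex I, 0.054 for complex II, 0.081 for complex III, 0.036 for complex IV and −0.036 for complex V, beside 0.0077 for all genes. These signs are not firm. Scaling by library totals alone shifted the median of all genes by −0.107 and took every complex below 0, down to −0.144 in complex V, and on the log2(TPM + 1) scale all 5 were below 0 with the median of all genes shifted by −0.153. Without ATF4 BKO 3 the median over all subunits was −0.049 and without WT 2 it was −0.033, against 0.045 with every library. Relative to the median of all genes, the medians of complexes I to V were 0.044, 0.047, 0.073, 0.029 and −0.044 as fitted, and 0.038, 0.042, 0.067, 0.028 and −0.045 with library totals alone.

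**Figure D2:**
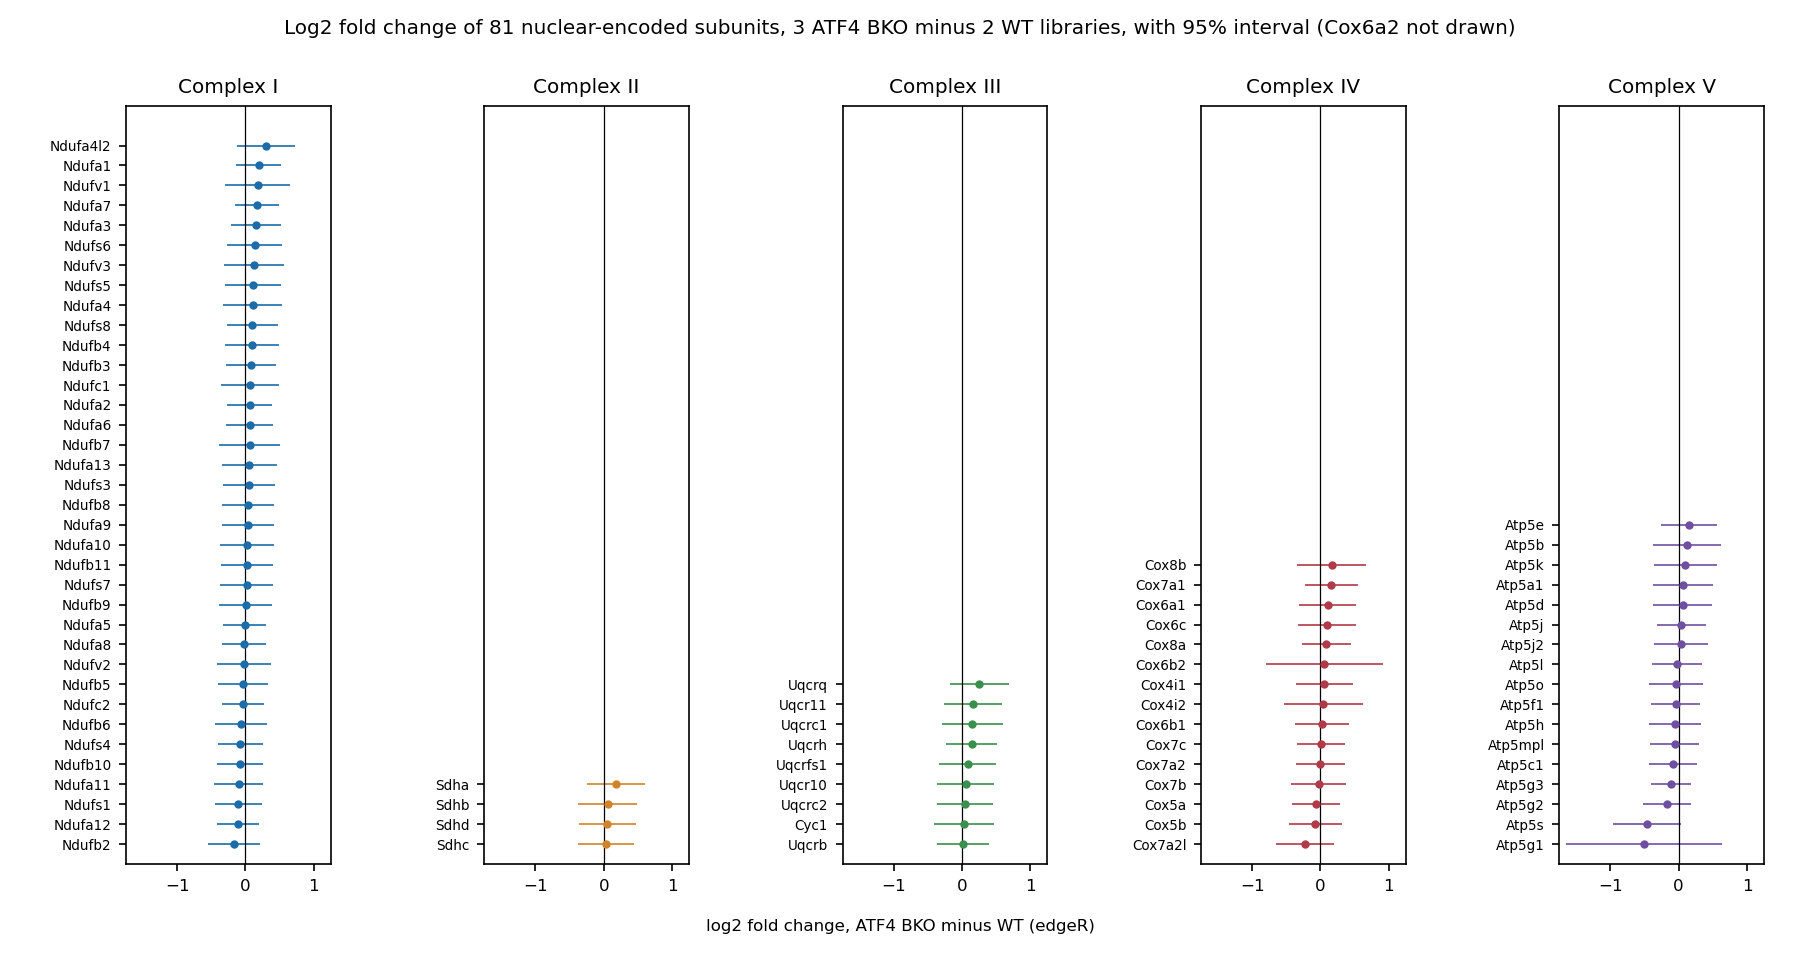
Log2 fold change, ATF4 BKO minus WT (x), of 81 subunits (y) by complex; points are edgeR estimates from 3 ATF4 BKO and 2 WT libraries and bars the 95% interval. Cox6a2 (−6.51) is not drawn, the bars of those drawn cross 0, and Atp5g1 has the widest.

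All 3 ATF4 BKO libraries lay above both WT libraries in CPM for 3 subunits, Ndufa1, Ndufa7 and Ndufa4l2 (background 8.95% of genes), and below both for 4, Ndufs1, Cox6a2, Atp5s and Atp5g3 (background 10.6%). As shares of the 83 these are 3.61% and 4.82%, both under the background. The libraries at either end were both ATF4 BKO. ATF4 BKO 3 had the highest CPM of the 5 libraries for 65 subunits (78.3%, against 18.1% of all genes tested), and ATF4 BKO 2 the lowest for 54 (65.1%, against 21.8%). Both held for 45 of the 83. In TPM, ATF4 BKO 1 was lowest for 53 subunits and WT 1 highest for 40. Within the first prefix 68 of 83 subunits were lower in ATF4 BKO, and within the second, with 1 library per genotype, 75 of 83 were higher, so the prefixes differed in direction, with medians over all subunits of −0.097 and 0.240. Without ATF4 BKO 1 and WT 2, the libraries with high Xist and high muscle markers, the median over the subunits was −0.0036, 37 of 82 were higher and 81 stayed within 0.5.

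Complex I begins with its core, which takes electrons from NADH through flavin and iron-sulfur centres to ubiquinone. None of its 7 nuclear-encoded core subunits passed the test in either direction. Ndufs1, the largest iron-sulfur subunit, had a log2 fold change of −0.10 (SE 0.14). It had 302, 312 and 307 TPM in ATF4 BKO and 388 and 376 TPM in WT, with no overlap. Its CPM values of 599, 548 and 603 against 646 and 606 were closer, and ATF4 BKO 3 lay just below WT 2. Ndufv1, which binds the flavin and oxidises NADH, had 812, 899 and 1114 TPM against 947 and 861 TPM (log2 fold change 0.18, SE 0.20). ATF4 BKO 3 was the high library here, and the other ATF4 BKO libraries lay around the WT values. Ndufv2, Ndufs3, Ndufs7 and Ndufs8 lay between −0.021 and 0.098. Of the k-mers (31-base words) of Ndufs3, 25.4% also occur in other genes, which makes its level uncertain.

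The 30 accessory subunits of complex I, which surround and stabilise the core, had a median log2 fold change of 0.048. Ndufb2 was at the lower end, with 298, 321 and 372 TPM in ATF4 BKO against 449 and 415 TPM in WT (log2 fold change −0.17, SE 0.16), and Ndufa12 followed with −0.11 (SE 0.13). Both overlapped between genotypes in CPM. At the upper end was Ndufa4l2, a paralogue of Ndufa4 known for its induction in low oxygen, with 26.5, 26.7 and 21.3 TPM in ATF4 BKO and 19.4 and 19.4 TPM in WT. Its log2 fold change was 0.30 (SE 0.17), with an adjusted p of 0.916 by edgeR. Every ATF4 BKO library was above both WT libraries, and it made up between 0.931% and 1.57% of the TPM of Ndufa4 and Ndufa4l2 together.

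In complex II, Sdha, the flavoprotein that oxidises succinate, had 885, 904 and 973 TPM in ATF4 BKO and 928 and 934 TPM in WT. Its log2 fold change of 0.18 (SE 0.17) was the highest of the 4. Sdhb, Sdhc and Sdhd had log2 fold changes of 0.056, 0.027 and 0.053, each with an SE between 0.17 and 0.18. None passed the test, and all 4 overlapped between genotypes.

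In complex III, the 9 subunits had log2 fold changes between 0.016 and 0.25. Uqcrq, a small subunit, was highest, with 1465, 1463 and 1742 TPM in ATF4 BKO and 1523 and 1385 TPM in WT (log2 fold change 0.25, SE 0.18, adjusted p = 0.920 by edgeR). It was followed by Uqcr11 at 0.16 (SE 0.17). The catalytic subunits were Cyc1, cytochrome c1, at 0.029 (SE 0.18), and Uqcrfs1, the Rieske iron-sulfur protein, at 0.081 (SE 0.17), and the core protein Uqcrc1 was at 0.15 (SE 0.18). Cyc1 ranged from 1612 TPM in ATF4 BKO 1 to 2075 TPM in WT 1, and the genotypes overlapped. Uqcrb was lowest at 0.016 (SE 0.16), and 34.8% of its k-mers are shared with other genes.

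Complex IV has isoforms that differ between tissues, and Cox6a2 was the one subunit far from 0. Cox6a2 (ENSMUSG00000030785.8, chromosome 7 from 128205435 to 128206387 in GRCm38) is the heart and skeletal muscle form of subunit VIa. It had 1, 7 and 0 counts in ATF4 BKO 1, 2 and 3, and 130 and 501 counts in WT 1 and 2. In TPM this was 0.0953, 0.613 and 0 against 10.4 and 39.1. The genotypes did not overlap, and the lower WT library stood 16.5 times above the highest ATF4 BKO library in CPM. Over the summed counts, 8 against 631, the level was 96.9 times higher in WT (95% exact interval 48.9 to 225, counting error only). WT 2 gave most of these counts, and the level was 41.4 times higher in WT 1 alone and 149 times higher in WT 2 alone. The fitted log2 fold change was −6.51 (SE 1.01), with an adjusted p of 0.671 by edgeR and 0.0123 by DESeq2. Over the alternatives that gave a value, DESeq2 and a fit of all genes with at least 1 count (adjusted p = 0.0407) called it, and the adjusted p ranged from 0.0123 to 0.997 over the 14 that tested it. With 1 WT library left out, whichever it was, too few libraries had 10 counts for it to be tested.

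Skeletal muscle markers moved with Cox6a2. All 16 markers were lower in ATF4 BKO, 15 of them without overlap (background 10.6%), and DESeq2 called 8 (background 0.736%). The markers are not independent of each other, and these background shares, which count genes singly, cannot show how unusual they are as a set. Their median log2 fold change was −6.39. Their summed level was 39.5, 53.6 and 41.1 CPM in ATF4 BKO and 132 and 2427 CPM in WT. This sum understates the gap for most markers, because Myl1 makes up most of it in ATF4 BKO 1 and ATF4 BKO 3. Myl1, the marker that overlapped, had 742, 599 and 1102 counts in ATF4 BKO and 956 and 2930 counts in WT. Acta1 had 27, 89 and 10 counts against 476 and 10028. The muscle creatine kinase Ckm had 4, 85 and 11 counts against 201 and 6950, and only Tnnt3 and Pvalb were at 0 in a library, ATF4 BKO 3. Cox6a2 was 64.7% of the CPM of Ckm in WT 1, 7.21% in WT 2 and 8.24% in ATF4 BKO 2, so the ratio was not the same in both WT mice. When the level of the muscle markers entered the fit as a covariate, the log2 fold change of Cox6a2 was −3.88 (adjusted p = 0.152 by edgeR). The part of muscle RNA in this result was not tested.

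**Figure D3:**
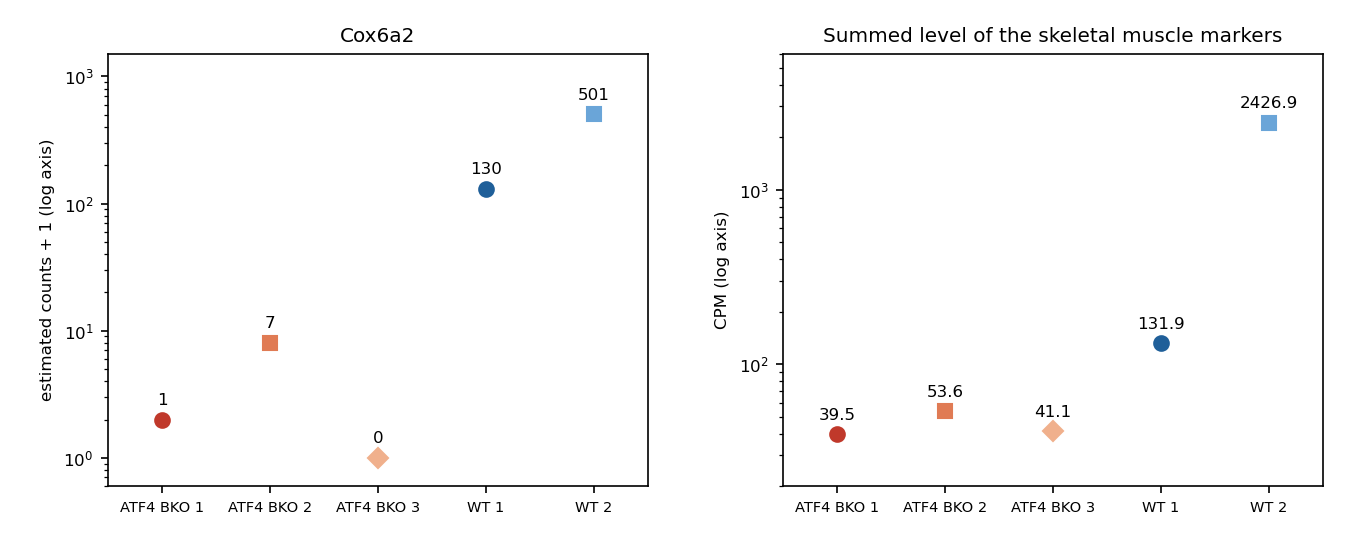
Left, estimated counts of Cox6a2 plus 1 on a log axis; right, the summed CPM of 16 skeletal muscle markers on a log axis; x gives the 5 libraries, with 1 point each and its value above it. Both are higher in WT 1 (130 counts, 132 CPM) and WT 2 (501 counts, 2427 CPM) than in any ATF4 BKO library. Myl1, which overlaps between genotypes, makes up most of the sum in ATF4 BKO 1 and ATF4 BKO 3.

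Cox6a1, the form of subunit VIa found in most tissues, held nearly all transcripts of the pair. It had 2069, 2366 and 2508 TPM in ATF4 BKO and 2615 and 2250 TPM in WT, with a log2 fold change of 0.11 (SE 0.17). Its share of the TPM of both isoforms was at least 99.97% in ATF4 BKO, 99.6% in WT 1 and 98.3% in WT 2. Cox6a2 was thus no more than 1.71% of the transcripts of this subunit in any library.

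The other muscle-type forms of complex IV were abundant and had log2 fold changes slightly above 0 as fitted. Cox7a1, the heart and muscle form of subunit VIIa, had 2630, 2721 and 3134 TPM in ATF4 BKO and 2844 and 2919 TPM in WT (log2 fold change 0.16, SE 0.16, 95% interval −0.23 to 0.54). It made up 63.3%, 62.7% and 64.6% of the TPM of Cox7a1, Cox7a2 and Cox7a2l in ATF4 BKO and 59.8% and 62.0% in WT. The share was higher in every ATF4 BKO library than in both WT libraries, by 2.65 percentage points between the means, and was not tested. Cox8b, the muscle form of subunit VIII, had 3184, 2994 and 4131 TPM against 3522 and 3443 TPM (log2 fold change 0.17, SE 0.21, 95% interval −0.34 to 0.67), the highest of complex IV. Beside Cox8a it made up 67.8%, 65.5% and 70.7% of the TPM against 67.1% and 67.1%, and the genotypes overlapped.

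Ubiquitous forms lay close to 0, with log2 fold changes of 0.0013 for Cox7a2, 0.088 for Cox8a, 0.058 for Cox4i1 and 0.027 for Cox6b1. Cox4i2, the lung form induced by low oxygen, made up between 0.216% and 0.317% of the TPM of subunit IV, and Cox6b2, the testis form of VIb, between 0.343% and 0.592%. Their genotypes overlapped. Cox7a2l, which takes part in joining complexes III and IV, had 173, 238 and 206 TPM in ATF4 BKO and 303 and 237 TPM in WT. Its log2 fold change of −0.22 (SE 0.17) was the lowest of complex IV after Cox6a2, and without WT 1 it was 0.019.

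In ATP synthase, the catalytic subunits Atp5a1 and Atp5b had log2 fold changes of 0.064 (SE 0.18) and 0.12 (SE 0.20), and Atp5e, the epsilon subunit of the central stalk, was highest at 0.15 (SE 0.17). The c subunit, which forms the rotating ring, is encoded by 3 genes for an identical mature protein, and each was below 0 as fitted. Atp5g1 had 281, 437 and 244 counts in ATF4 BKO and 284 and 854 counts in WT. WT 2 alone was high, and WT 1 lay among the ATF4 BKO libraries. Its log2 fold change was −0.50 (SE 0.47), which was 0.40 without WT 2 and −1.05 without WT 1. Atp5g2 had 294, 291 and 257 TPM against 376 and 339 TPM, and Atp5g3 had 347, 379 and 348 TPM against 449 and 432 TPM. Their log2 fold changes of −0.17 (SE 0.14) and −0.12 (SE 0.12) did not pass the test. Of the k-mers of Atp5g2, 40.2% occur elsewhere. Within the family, Atp5g3 held between 51.1% and 55.8% of the TPM, Atp5g2 between 40.2% and 44.3%, and Atp5g1 between 2.85% and 8.68%.

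Atp5s, coupling factor B, had 144, 201 and 182 counts in ATF4 BKO and 319 and 270 counts in WT. In CPM it was lower in 3 of 3 ATF4 BKO libraries, at 6.54 ± 0.54 (SD, n = 3) against 9.02 ± 1.505 (SD, n = 2). In TPM the genotypes overlapped, at 7.60, 12.2 and 10.5 against 12.2 and 12.3. The log2 fold change was −0.46 (SE 0.21, adjusted p = 0.911 by edgeR and 0.900 by DESeq2), and −0.58 and −0.37 within the prefixes. It was between −0.64 and −0.27 when each library was left out, and between −0.64 and −0.11 over all alternatives.

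A single transcript held over 90% of the counts in 38 of the 83 genes and over 50% in 76. The split between forms was looked at in Ndufv3 and Atp5c1. The longer transcript of Ndufv3, a complex I subunit with a long and a short form, held 44.4%, 44.7% and 45.0% of the counts in ATF4 BKO and 50.6% and 44.3% in WT, and it was the more abundant form in WT 1 alone. The more abundant transcript of Atp5c1, the gamma subunit, held 64.0%, 68.4% and 62.3% against 69.3% and 66.3%.

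The rest of the same complexes is encoded by 13 genes of the mitochondrial chromosome. All 13 were higher in every ATF4 BKO library than in both WT libraries, where 8.95% of all genes were, at a median log2 fold change of 0.52. None passed edgeR's test, 7 had an unadjusted p under 0.05 (background 5.23%), and DESeq2 called mt-Atp6 (0.92, SE 0.26, adjusted p = 0.0193 by DESeq2) and mt-Co2. The 13 genes lie on the same chromosome, and its share of all TPM, given below, was also higher in every ATF4 BKO library. They are therefore not independent of each other. The shares of 8.95% and 5.23% count genes singly, so they cannot show how unusual the 13 are as a set. mt-Atp6, a membrane subunit of ATP synthase, had 22125, 15546 and 21938 CPM against 9833 and 11210 CPM. The median of the 13 stayed above 0 under library totals alone (0.41), on the log2(TPM + 1) scale (0.33) and without any one library. Markers of several cell types were also above 0 by their medians. Among vessel cells, mural cells were at 0.39 (4 of 8 above both WT libraries) and endothelial cells at 0.33 (2 of 5). Macrophages were at 0.41 (0 of 5), B cells at 0.54 (1 of 3) and adipocytes at 0.13 (2 of 4). White adipocyte markers had a median of 0.24 (0 of 3) but differed in direction. Hoxc8 was at 0.24, Agt at 1.69 and Lep at −2.57, with Lep below both WT libraries in every ATF4 BKO library. The summed level of white adipocyte markers was lower in ATF4 BKO, at 5.89 to 7.93 CPM against 9.40 to 15.97 CPM in WT. Markers of brown adipocytes were at −0.025 and those of skeletal muscle at −6.39. Summed levels of mural markers were 906 to 1083 CPM in ATF4 BKO and 684 to 902 CPM in WT. Those of endothelial markers were 873 to 1155 CPM and 731 to 848 CPM, with no mural or endothelial marker at 0. The part of these cell types in the mitochondrial difference was not tested. For complexes I, III, IV and V, summed mitochondrially encoded over summed nuclear-encoded TPM was 4.88 ± 0.54, 2.04 ± 0.41, 4.53 ± 0.87 and 2.25 ± 0.32 in ATF4 BKO (SD, n = 3) and 3.58 ± 0.09, 1.36 ± 0.011, 2.84 ± 0.42 and 1.28 ± 0.16 in WT (SD, n = 2). In each of them the lowest ATF4 BKO library was above the higher WT library.

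As TPM sums to a fixed total, more of one class means less of another. The nuclear-encoded subunits held 8.13%, 8.40% and 9.55% of all TPM in ATF4 BKO and 9.53% and 9.27% in WT, while transcripts of the mitochondrial chromosome held 35.1%, 29.2% and 32.1% against 23.7% and 24.7%. Of the TPM outside the mitochondrial chromosome, the subunits held 12.5%, 11.9% and 14.1% against 12.5% and 12.3%. By complex, the summed TPM in ATF4 BKO over WT was 0.916, 0.918, 0.938, 0.922 and 0.932 for complexes I to V, and between 1.02 and 1.05 once the mitochondrial chromosome was left out of the total. The genotypes overlapped in both.

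**Figure D4:**
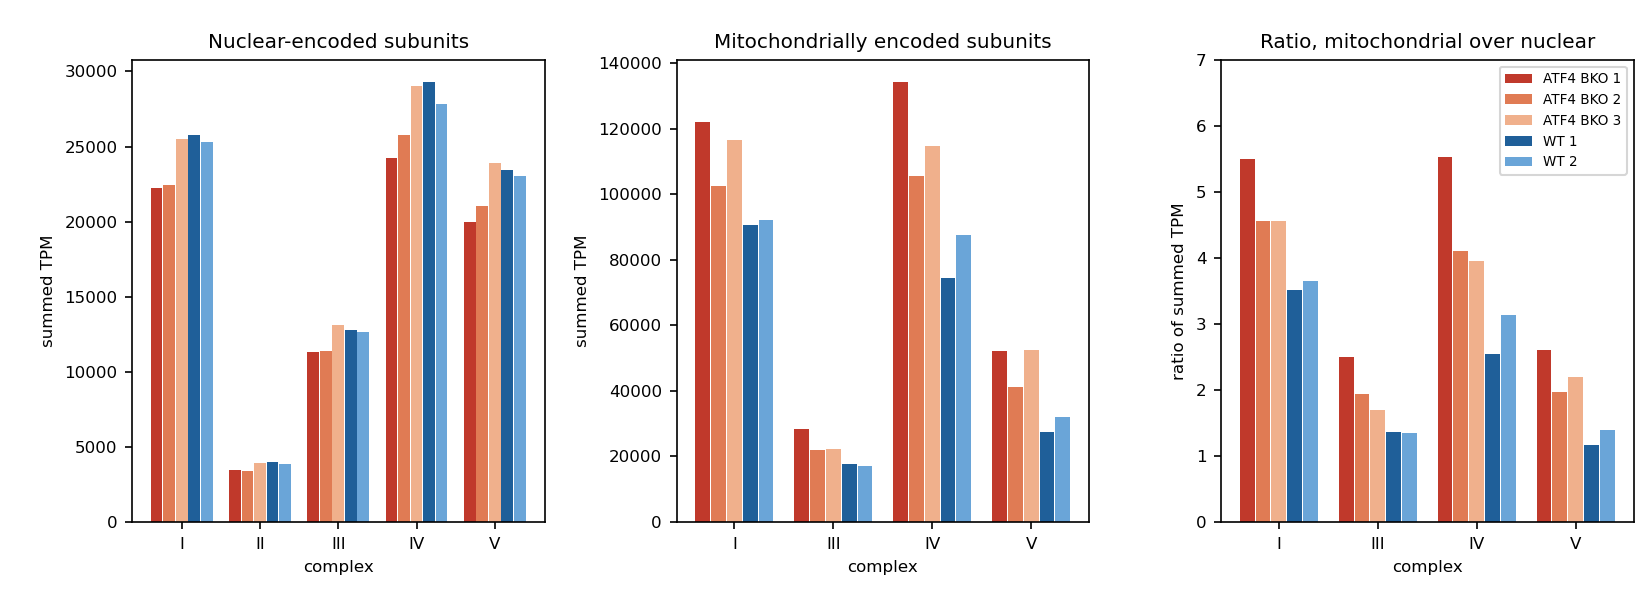
Summed TPM (y) of the nuclear-encoded subunits (left) and of the mitochondrially encoded subunits (middle), and their ratio (right), by complex (x) with 1 bar for each library; complex II has no mitochondrially encoded subunit. The nuclear sums overlap between genotypes, and the ratio is higher in all 3 ATF4 BKO libraries than in both WT libraries for the 4 complexes drawn.

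Assembly factors, which build the complexes without remaining in them, were also close to 0. Of 50 tested, 1 had an unadjusted p under 0.05 (background 5.23%) and none passed edgeR's or DESeq2's adjusted threshold. That gene was Uqcc3, needed for early assembly of complex III, with 43.6, 41.8 and 45.3 CPM in ATF4 BKO and 34.8 and 33.5 CPM in WT. Its log2 fold change was 0.35 (SE 0.12, adjusted p = 0.911 by edgeR), and it was higher in 3 of 3 ATF4 BKO libraries. Bcs1l, which inserts the Rieske protein, was at −0.21 (SE 0.14) and below both WT libraries in all 3. Among complex IV factors, Coa5 was at −0.32 (SE 0.15) with all ATF4 BKO libraries below, and Surf1 was at 0.17 (SE 0.13) with all above. In all, 2 of the 50 lay above both WT libraries and 2 below (background 8.95% and 10.6%). The lowest p in the other lists belonged to Ndufaf4 (−0.23) and Nubpl (0.16) for complex I, Sdhaf1 (−0.12) for complex II, and Atpaf1 (−0.17) and Atpaf2 (0.010) for ATP synthase. Median log2 fold changes by complex were −0.031, −0.098, −0.12, −0.033 and −0.073 for the factors of complexes I to V.

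A list of carriers and enzymes that link the complexes or feed them held 7 genes, with a median of 0.027 and none passing the test. It also counts Ndufab1, a part of complex I described at the end. Cycs, cytochrome c, had 637, 600 and 673 CPM in ATF4 BKO and 738 and 660 CPM in WT (log2 fold change −0.13, SE 0.15), and Etfa, of the flavoprotein that brings electrons from fatty acid oxidation, was at 0.11 (SE 0.19). Regulators of these genes were a list of 15, with a median of 0.021, 0 at an unadjusted p under 0.05, and 0 called by edgeR or DESeq2. Nrf1 had 12.2, 14.7 and 13.1 CPM against 17.2 and 15.1 CPM (log2 fold change −0.27, SE 0.16), and Esrrg had 18.9, 22.4 and 17.7 CPM against 24.5 and 25.2 CPM (−0.34, SE 0.15). These, with Tfam (−0.15, SE 0.12), which packages and transcribes mitochondrial DNA, were lower in all 3 ATF4 BKO libraries, and these 3 of 15 stand beside a background of 10.6%. The lowest log2 fold changes of the list were those of Ppara (−0.62, SE 0.30) and Pprc1 (−0.48, SE 0.35), and both genes overlapped between genotypes. Nrip1, a corepressor, was at 0.32 (SE 0.33). The coactivator Ppargc1a varied widely between mice, with 67.5, 181 and 61.4 CPM against 51.4 and 111 CPM, and its log2 fold change of 0.35 had an SE of 0.57.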

How the data were processed

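Members and gene lists were chosen with earlier results of these data known. BAT RNA of 5 mice was analysed, 1 library per mouse. Per the labels, the authors made stranded mRNA libraries and used Kallisto 0.45.0 with mm10. They deposited estimated counts and TPM per transcript, without scaling between mice. The transcript annotation is not given in the sources used here. Of 141450 transcripts, 138191 matched GENCODE M21 (GRCm38) by identifier, and those left out held no more than 1.29% of a library. Counts were summed per gene and rounded, and a gene was kept at 10 or more counts in 2 or more libraries. edgeR 4.0.16 (R 4.3.3) used TMM scaling and its quasi-likelihood test, with genotype as its term and 3 residual degrees of freedom. DESeq2 1.42.0 and limma 3.58.1 served as alternatives. The fits were tested on simulated data. No 2 libraries agreed within sampling noise (chi-square per degree of freedom at least 49.9). Genes named are isoform pairs, catalytic subunits, the 2 highest and 2 lowest log2 fold changes of each complex, called subunits and the lowest p in each direction of each list. 1 member counted in the totals is not reported by name here. Other genes named were chosen after their values were seen. Alternatives covered the test, scaling, filter, lengths, left-out libraries, blocks and a muscle covariate.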

Additional observations from a re-analysis of the deposited data

How the results depend on the processing

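With 2 WT mice the spread rests on few libraries, and edgeR called 1 gene in all. That count was 121 with DESeq2, 8 with all genes of at least 1 count, 0 with limma on log2(TPM + 1), 0 with the table name prefix as a block, 217 with muscle marker levels in the fit, and between 0 and 23 when 1 library was left out, the latter without WT replicate 1. No subunit was called apart from 1, Cox6a2, with DESeq2 and 1, Cox6a2, without the count filter. The number of subunits at an unadjusted p under 0.05, 1 as reported, was 2 with library totals alone, 2 with length-scaled counts and 2 with muscle marker levels in the fit. It was 7 and 6 of 84 using limma on log2(TPM + 1) and log2(TPM + 0.1), and 1 without any one ATF4 BKO library. Over all genes the number rose too, from 860 of 16450 as reported. It was 1040 with library totals alone, 893 of 16561 with length-scaled counts and 2051 with muscle marker levels. With limma it was 1368 and 1340 of 15345. The setting without ATF4 BKO replicate 1 and WT replicate 2 was chosen after seeing the data.

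Medians by complex are given in the order I to V. They were −0.130, −0.133, −0.108, −0.148 and −0.215 on log2(TPM + 1), the same to 3 decimals on log2(TPM + 0.1), and −0.209, −0.195, −0.146, −0.234 and −0.233 with the muscle covariate. As that covariate did not overlap between genotypes, its fit cannot fully separate muscle content from genotype. With library totals alone, those of complexes IV and V were −0.071 and −0.144. Within the first prefix they were −0.084, −0.055, −0.038, −0.119 and −0.118, and within the second 0.261, 0.251, 0.305, 0.248 and 0.176. Leaving out 1 library moved them between −0.037 (without ATF4 BKO replicate 3) and 0.137 (without ATF4 BKO replicate 2), −0.033 and 0.166, 0.0042 and 0.194, −0.056 and 0.129, and −0.102 and 0.044. The cause was not tested. Summed TPM in ATF4 BKO over WT became 1.03, 1.08, 1.06, 1.03 and 1.04 as summed CPM, and 1.02, 1.03, 1.05, 1.03 and 1.04 without the mitochondrial chromosome, a change built into the total.

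In the fit with a replicate block, 0 genes and 0 subunits were called, and the medians were −0.045, −0.040, −0.0035, −0.054 and −0.101. Deviations of same-numbered libraries correlated at 0.047 and 0.200 over 2 pairs, too few to show that the numbers pair the libraries, and no label does. Over the 54 genes with a fit that the naming rule chose, a call changed 5 times, each time to a call that edgeR did not make, with DESeq2 (Atf4, Cox6a2, mt-Atp6) or without the filter (Atf4, Cox6a2). mt-Co2, outside that rule, was also called by DESeq2.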

Other observations

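A few genes of ATP synthase and complex I fall outside the symbols that chose the members. Atpif1, the inhibitor that blocks ATP hydrolysis by the enzyme, had 39.5, 50.1 and 29.0 TPM in ATF4 BKO and 38.0 and 47.2 TPM in WT, with overlap and a log2 fold change of 0.11 (SE 0.26). Usmg5, a small subunit that helps ATP synthase form dimers, had 1111, 1065 and 1194 TPM against 1297 and 1341 TPM, and a log2 fold change of −0.043 (SE 0.14). Ndufab1, the acyl carrier protein that is also part of complex I, had 280, 223 and 293 CPM against 240 and 278 CPM, and a log2 fold change of 0.034 (SE 0.17). None of the 3 passed edgeR's or DESeq2's test.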
